A study of Homo sapiens with 24 samples.

Results

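The genes described here encode the enzymes that build serine and hand its carbon to folate, namely PHGDH, PSAT1, PSPH, SHMT1, SHMT2, MTHFD1, MTHFD2, MTHFD1L, MTHFD2L and ALDH1L2. They were taken by name and are 10 of the 58735 genes in the expression table. RNA was sequenced from Sem and Nalm6, human leukaemia lines of B cell precursor origin, of which Sem carries a rearranged KMT2A gene. Each line received 10 µM ibrutinib together with asparaginase for 24 h (the combination), asparaginase alone for 24 h, 10 µM ibrutinib alone for 24 h, or no drug, and each of the 8 groups held 3 libraries. Ibrutinib inhibits the kinase BTK, and asparaginase breaks down asparagine and, more slowly, glutamine in the medium. Asparaginase was given as 1 IU/ml in the study design and as 0.5 IU/ml in the treatment protocol. The harvest time of untreated cells was not given. All groups grew in RPMI with serum, which supplies serine, glycine and folate. Libraries were described as triplicates and separate cultures were not mentioned, so p-values below reflect the spread between libraries alone, and that spread may be technical.

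Serine is made from the glycolytic intermediate 3-phosphoglycerate by PHGDH, which oxidises it, PSAT1, which adds an amino group from glutamate, and PSPH, which removes the phosphate. SHMT1 in the cytosol and SHMT2 in mitochondria split serine into glycine and a one-carbon unit bound to tetrahydrofolate; inside mitochondria MTHFD2 or MTHFD2L oxidises that unit and MTHFD1L releases it as formate, and in the cytosol MTHFD1 takes the formate up for purine and thymidylate synthesis. ALDH1L2, also mitochondrial, oxidises the unit to carbon dioxide. In human cells the transcription factor ATF4, which acts when amino acids run short, is known to induce PHGDH, PSAT1, PSPH, SHMT2 and MTHFD2.

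Each library held 15032908 to 18136263 reads in genes, and at the median library a single read of a 1 kb gene was worth 0.0601 FPKM. FPKM is fragments per kilobase of gene, scaled to library size. The order of different genes by FPKM therefore depends on the gene lengths used, such as 2188 bases for PSAT1, 9217 for PHGDH and 9819 for MTHFD2L. Deposited values of 1 or more had lost their decimal point and were restored from the whole number of reads they had to represent. Where more than 1 placing of the point gave whole reads, a score chose between them. That score favoured close replicates and small, additive drug changes. Under it the lowest posterior of any member's restoration was 0.999991. Of 11 B cell precursor markers, 9 averaged at least 1 FPKM in Sem and RAG1 and DNTT did not, while 11 did in Nalm6. Their summed FPKM was 797 to 822 in Sem combination, 551 to 574 in asparaginase, 760 to 790 in ibrutinib and 589 to 623 in untreated libraries, and 2849 to 2880, 2182 to 2239, 3061 to 3232 and 2820 to 2956 in Nalm6. Of 6 T and NK cell markers 1 reached that mean in each line (NKG7), of 6 myeloid markers 1 in Sem (CSF1R) and 2 in Nalm6 (LYZ and CD33), and of 3 erythroid and 3 stromal markers none. The summed T and NK cell markers were 10.5 to 13.8 FPKM in Sem combination, 14.6 to 16.7 in asparaginase, 12.6 to 13.7 in ibrutinib and 18.3 to 24.6 in untreated libraries and at most 3.24 FPKM in Nalm6, with 3 of the 6 at 0 in every Sem library and 5 in every Nalm6 library. The summed myeloid markers were 2.72 to 3.56, 4.57 to 4.61, 2.81 to 3.78 and 5.81 to 7.04 FPKM in Sem and 9.05 to 10.1, 6.82 to 7.22, 9.39 to 10.8 and 14.1 to 16.6 FPKM in Nalm6 in the same order of treatments. The part of these markers in the results was not tested. The deposited FPKM held a scaling factor per library that moved with treatment. In Sem it was 1.017 to 1.043 in combination, 1.029 to 1.057 in asparaginase, 1.029 to 1.052 in ibrutinib and 1.064 to 1.088 in untreated libraries. In Nalm6 it was 0.915 to 0.919, 0.916 to 0.933, 0.957 to 0.973 and 1.005 to 1.018 in the same order. Its part in the results was not tested, and results that turn under another scaling are named where they are given. An altered mix of cells and an altered level per cell cannot be told apart in bulk libraries.

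The promoters of 6 members are shown because their RNA went different ways with asparaginase, PHGDH, PSAT1, MTHFD2 and MTHFD1L upward in Sem and MTHFD1 and SHMT1 not. The windows come from RefSeq, build GRCh38.p14, and run 5′ to 3′ on the gene's strand from 250 bases before a transcription start to 50 after. They lie at chr1:119711684-119711983 (PHGDH, plus strand), chr9:78296875-78297174 (PSAT1, plus), chr2:74198365-74198664 (MTHFD2, plus), chr6:150866236-150866535 (MTHFD1L, plus), chr14:64388103-64388402 (MTHFD1, plus) and chr17:18363501-18363800 (SHMT1, minus). Capitals mark 3 motifs searched on both strands, none of which overlap here: TGATGNAAT, a form of the amino acid response element that ATF4 binds, the E-box CACGTG, which MYC and USF proteins bind, and CCAAT, the box bound by NF-Y, which reads ATTGG where it lies on the other strand.
PHGDH: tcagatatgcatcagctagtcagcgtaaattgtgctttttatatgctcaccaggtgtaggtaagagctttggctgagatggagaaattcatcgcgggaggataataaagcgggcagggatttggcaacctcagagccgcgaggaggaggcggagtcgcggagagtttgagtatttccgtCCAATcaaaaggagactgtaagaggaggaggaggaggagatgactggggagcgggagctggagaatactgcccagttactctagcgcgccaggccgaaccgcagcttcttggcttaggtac
PSAT1: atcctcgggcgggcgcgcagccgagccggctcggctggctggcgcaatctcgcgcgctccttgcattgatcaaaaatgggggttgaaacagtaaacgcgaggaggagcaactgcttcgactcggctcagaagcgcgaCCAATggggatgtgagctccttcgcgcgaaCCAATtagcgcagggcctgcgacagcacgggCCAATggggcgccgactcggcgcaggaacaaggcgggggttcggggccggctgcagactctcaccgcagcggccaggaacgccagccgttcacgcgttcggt
MTHFD2: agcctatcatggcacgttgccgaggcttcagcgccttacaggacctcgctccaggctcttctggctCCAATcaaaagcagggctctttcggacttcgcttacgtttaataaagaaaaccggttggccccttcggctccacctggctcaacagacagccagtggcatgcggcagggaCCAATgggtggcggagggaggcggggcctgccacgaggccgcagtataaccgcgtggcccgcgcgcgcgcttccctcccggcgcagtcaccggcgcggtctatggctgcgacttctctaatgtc
MTHFD1L: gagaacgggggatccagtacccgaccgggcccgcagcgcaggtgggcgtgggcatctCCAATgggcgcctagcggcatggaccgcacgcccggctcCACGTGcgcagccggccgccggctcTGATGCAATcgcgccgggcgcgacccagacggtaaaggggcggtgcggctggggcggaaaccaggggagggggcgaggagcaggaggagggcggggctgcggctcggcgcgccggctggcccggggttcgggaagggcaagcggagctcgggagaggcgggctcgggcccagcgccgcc
MTHFD1: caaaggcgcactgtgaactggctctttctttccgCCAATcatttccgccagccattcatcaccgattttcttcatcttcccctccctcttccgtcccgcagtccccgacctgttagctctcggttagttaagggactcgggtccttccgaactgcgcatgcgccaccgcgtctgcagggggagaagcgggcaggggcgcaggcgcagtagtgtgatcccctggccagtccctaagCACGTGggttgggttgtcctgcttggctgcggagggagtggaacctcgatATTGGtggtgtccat
SHMT1: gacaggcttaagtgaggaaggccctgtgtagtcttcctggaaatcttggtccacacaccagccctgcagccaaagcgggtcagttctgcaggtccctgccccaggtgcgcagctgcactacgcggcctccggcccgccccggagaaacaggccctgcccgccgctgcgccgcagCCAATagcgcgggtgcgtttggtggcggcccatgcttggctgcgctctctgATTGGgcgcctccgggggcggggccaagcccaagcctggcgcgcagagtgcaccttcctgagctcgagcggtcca

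RefSeq windows matched 7 of the 10 members, the 6 shown and MTHFD2L; PSPH, SHMT2 and ALDH1L2 had none. TGATGNAAT was found in MTHFD1L alone, beginning 129 bases before the start in the window shown, and 0.991% of 35116 promoter windows in the genome held it. CACGTG lay in MTHFD1L and in MTHFD1, and in 7.26% of all windows. CCAAT occurred 3 times in PSAT1, 2 times each in MTHFD2, MTHFD1 and SHMT1, and 1 time each in PHGDH and MTHFD1L, where 34.6% of all windows held at least 1 and 3.26% held 3 or more. Neither window of MTHFD2L held any of the 3 motifs. These matches describe letters in a 300-base window and not binding.

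In untreated cells the order of the members was nearly shared by the lines, but their levels were not (see the plot of FPKM by library). PSAT1 stood highest at 86.7 ± 4.85 FPKM in Sem and 133 ± 4.04 FPKM in Nalm6 (SD, n = 3 each), followed by MTHFD2 and SHMT2 in both lines. SHMT1, MTHFD2L and ALDH1L2 were the lowest by FPKM, in that order, in both. Reads not divided by gene length gave another order. MTHFD2 held 14256 reads and PSAT1 9156 over the untreated Sem libraries, and 26632 and 13800 over those of Nalm6. By limma-trend on log2(FPKM + 1), called at a Benjamini-Hochberg adjusted p under 0.05, Sem had 2 of the 9 tested members higher and 5 lower than Nalm6, where 65.8% of all 15116 tested genes were called (34.0% higher and 31.8% lower). The members' median log2 difference was -0.24 and that of all tested genes -0.001, so the share of members called was near the background.

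The enzymes lower in untreated Sem were PSAT1 and the mitochondrial one-carbon enzymes. MTHFD1L, which releases formate, had 17.5, 16.1 and 17.6 FPKM in untreated Sem libraries, against 34.3, 33.3 and 34.7 FPKM in untreated Nalm6 libraries, 0.499 times the level (log2 -0.96, SE 0.04, limma adjusted p = 1.2e-14). MTHFD2, the main mitochondrial oxidising enzyme, had 60.6, 58.0 and 63.2 FPKM in Sem against 110, 120 and 115 FPKM in Nalm6 (0.526 times, limma adjusted p = 9.8e-12). SHMT2 was at 0.579 times the Nalm6 level (limma adjusted p = 5.9e-11), PSAT1 at 0.652 times (5.7e-10) and MTHFD2L at 0.774 times (0.0048). Every Sem library lay below every Nalm6 library for these 5 genes. PHGDH and SHMT1 ran the other way, PHGDH at 29.78, 28.96 and 31.55 FPKM in Sem against 23.9, 21.3 and 22.6 FPKM in Nalm6 (1.33 times, limma adjusted p = 4.2e-06). SHMT1 was 1.37 times as high in Sem (limma adjusted p = 1.1e-05). PSPH (log2 difference 0.13, 95% interval 0.00 to 0.26, limma adjusted p = 0.067) and MTHFD1 (-0.00, -0.08 to 0.07, limma adjusted p = 0.96) were not called; without Nalm6 untreated library 2, one of the 3 libraries that stood apart from their group, PSPH was called higher in Sem (limma adjusted p = 0.028).

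**Figure D1:**
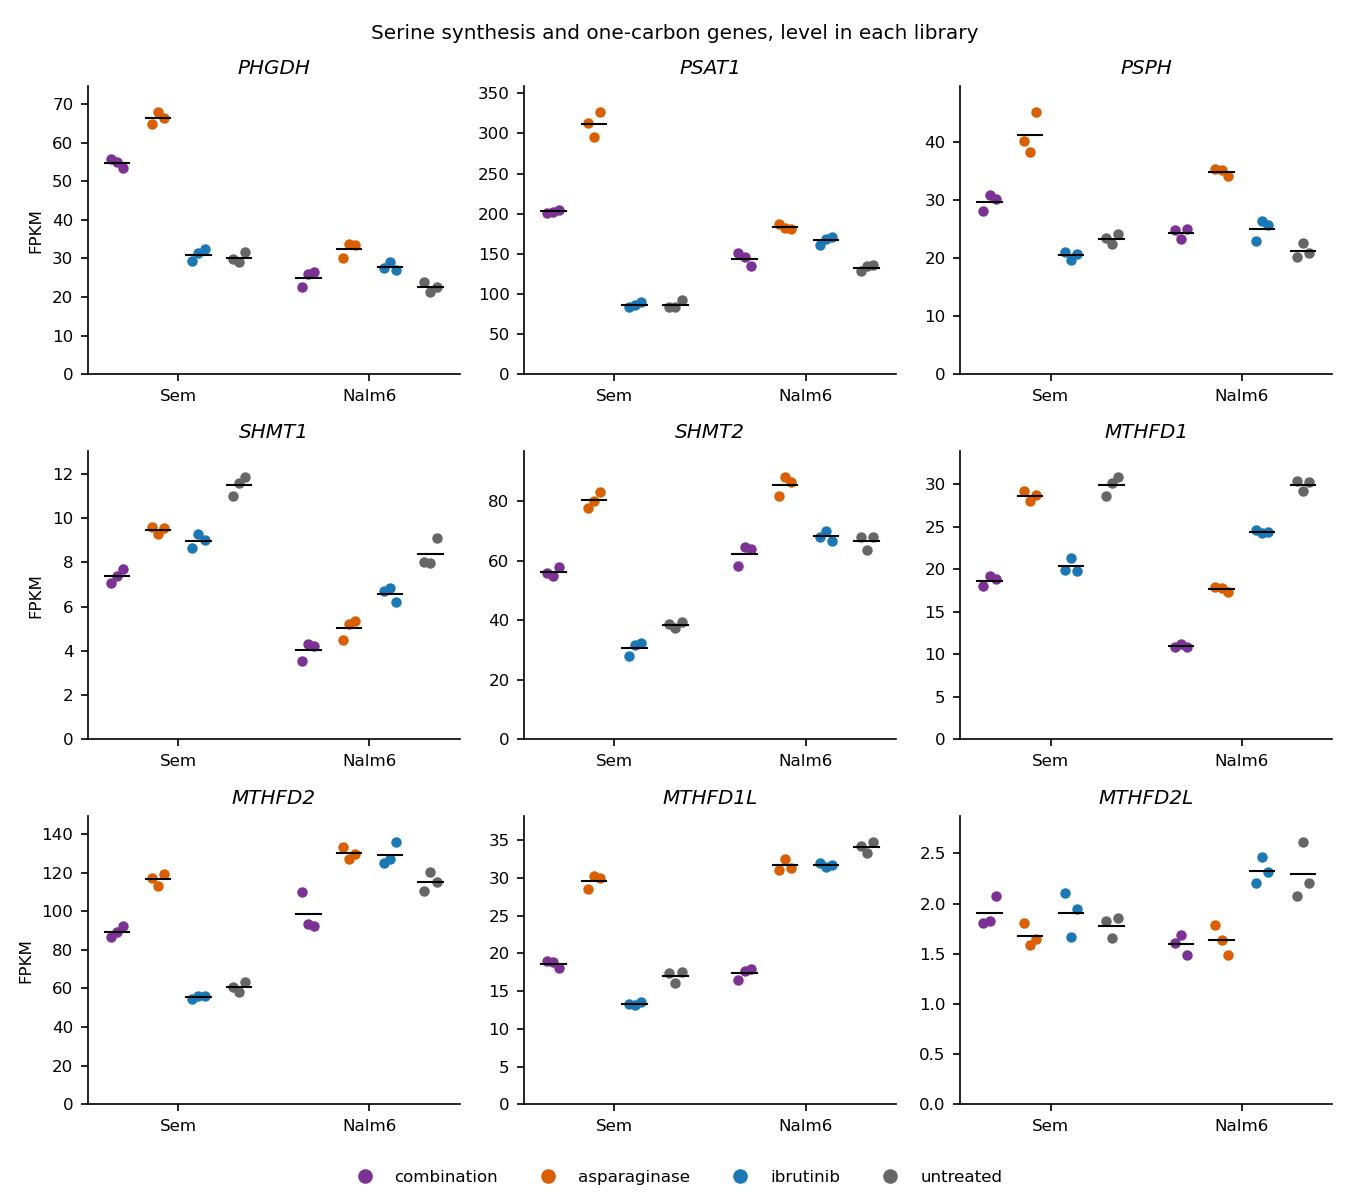
FPKM of the 9 members detected, in each library (points) with the group mean (line), for Sem and Nalm6 and for the combination, asparaginase, ibrutinib and untreated libraries in that order within a line. Sem asparaginase libraries hold the highest PSAT1 (296 to 326 FPKM), PHGDH, PSPH and SHMT2 of their line, and Nalm6 combination libraries hold the lowest MTHFD1 and MTHFD1L of theirs.

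Asparaginase raised the serine synthesis enzymes in both lines and far more in Sem for PSAT1 and PHGDH, while the cytosolic SHMT1 fell in both. In Sem, limma called 6 of 9 tested members higher and 1 lower with asparaginase, where 26.4% of all 13417 tested genes were called (11.4% higher and 15.1% lower). The members' median log2 change was 0.79 and that of all tested genes -0.004. In Nalm6, limma called 5 of 9 higher and 4 lower, where 56.3% of all 13237 tested genes were called (28.2% higher and 28.1% lower), with medians of 0.17 for the members and 0.02 for all tested genes. All comparisons of a line with untreated cells share its untreated libraries.

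PSAT1, the aminotransferase (ENSG00000135069, chromosome 9, 78297143 to 78330093, plus strand), had 313, 296 and 326 FPKM in Sem asparaginase libraries, against 84.0, 83.8 and 92.3 FPKM in untreated ones. That was 3.6 times the untreated level (log2 1.84, SE 0.05, limma adjusted p = 9.1e-10), and no library of one group came near the other. In Nalm6 PSAT1 had 187, 182 and 181 FPKM with asparaginase and 128, 135 and 136 FPKM untreated, 1.38 times the untreated level (log2 0.46, SE 0.05, limma adjusted p = 1.5e-05). The Nalm6 groups were also apart, by a smaller gap, and the difference between the lines in this change was 1.37 (Sem minus Nalm6, SE 0.07, limma adjusted p = 2.9e-11).

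PHGDH, the first enzyme of the pathway (ENSG00000092621, chromosome 1, 119648411 to 119744226, plus strand), had 64.8, 67.8 and 66.4 FPKM in Sem asparaginase libraries, against 29.78, 28.96 and 31.55 FPKM in untreated ones (2.2 times, log2 1.12, SE 0.04, limma adjusted p = 2.2e-08). In Nalm6 it had 30.1, 33.7 and 33.4 FPKM against 23.9, 21.3 and 22.6 FPKM (1.43 times, log2 0.50, SE 0.07, limma adjusted p = 9.5e-05). Asparaginase libraries lay above all untreated libraries in both lines. PSPH, the phosphatase (ENSG00000146733, chromosome 7, 56011051 to 56051604, minus strand), had 40.1, 38.3 and 45.1 FPKM in Sem asparaginase libraries against 23.5, 22.4 and 24.1 FPKM untreated (1.77 times, limma adjusted p = 5.4e-06). In Nalm6 it had 35.3, 35.2 and 34.2 FPKM against 20.2, 22.6 and 20.9 FPKM (1.64 times, limma adjusted p = 3e-06). PSPH was the 1 enzyme of the 3 whose change with asparaginase was not called different between the lines (Sem minus Nalm6 0.10 on the log2 scale, 95% interval -0.08 to 0.28, limma adjusted p = 0.4).

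The SHMT enzymes separated by compartment. Mitochondrial SHMT2 (ENSG00000182199, chromosome 12, 57229327 to 57234935, plus strand) had 77.7, 80.0 and 82.9 FPKM in Sem asparaginase libraries against 38.7, 37.5 and 39.3 FPKM untreated (2.08 times, limma adjusted p = 1.7e-07), and 81.6, 88.0 and 86.6 FPKM in Nalm6 against 68.1, 63.5 and 68.0 FPKM (1.28 times, limma adjusted p = 0.00016). Cytosolic SHMT1 (ENSG00000176974, chromosome 17, 18327860 to 18363563, minus strand) had 9.58, 9.27 and 9.56 FPKM in Sem asparaginase libraries against 11.02, 11.58 and 11.85 FPKM untreated (0.825 times, limma adjusted p = 0.0015). In Nalm6 SHMT1 had 4.49, 5.22 and 5.36 FPKM against 8.03, 7.96 and 9.10 FPKM (0.601 times, limma adjusted p = 5.7e-05). All asparaginase libraries lay above the untreated ones for SHMT2 and below them for SHMT1. The annotated span of SMCR8, at up to 12.2 FPKM, overlaps that of SHMT1 on the opposite strand. So do those of NDUFA4L2 (up to 7.28 FPKM) with SHMT2, ZBTB25 (up to 3.72 FPKM) with MTHFD1 and AC006030.1 (up to 3.91 FPKM) with MTHFD2. Since strandedness was not stated, reads in any shared bases cannot be told apart, and the extent of overlap was not measured.

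Among the enzymes that move the unit along the folate pool, mitochondrial MTHFD2 and MTHFD1L rose in Sem and cytosolic MTHFD1 fell in Nalm6. Mitochondrial MTHFD2L, given below, did not rise in either line. MTHFD2 (ENSG00000065911, chromosome 2, 74198562 to 74217565, plus strand) had 117, 113 and 119 FPKM in Sem asparaginase libraries against 60.6, 58.0 and 63.2 FPKM untreated (1.92 times, limma adjusted p = 3.6e-08). MTHFD1L (ENSG00000120254, chromosome 6, 150865549 to 151101887, plus strand) had 28.6, 30.3 and 30.1 FPKM against 17.5, 16.1 and 17.6 FPKM (1.74 times, limma adjusted p = 3.2e-07). Cytosolic MTHFD1 (ENSG00000100714, chromosome 14, 64388031 to 64463457, plus strand) was not called in Sem, with 29.2, 28.1 and 28.8 FPKM against 28.7, 30.2 and 30.9 FPKM (log2 -0.06, 95% interval -0.15 to 0.03, limma adjusted p = 0.34). In Nalm6 MTHFD1 fell to 18.0, 17.9 and 17.4 FPKM with asparaginase, against 30.4, 29.2 and 30.3 FPKM untreated (0.592 times, log2 -0.72, SE 0.04, limma adjusted p = 7.4e-08). MTHFD2 in Nalm6 had 133, 127 and 129 FPKM against 110, 120 and 115 FPKM (log2 0.17, limma adjusted p = 0.047). MTHFD1L in Nalm6 had 31.1, 32.5 and 31.4 FPKM against 34.3, 33.3 and 34.7 FPKM (log2 -0.11, limma adjusted p = 0.047), but turned to 0.05 (limma adjusted p = 0.41) with FPKM rescaled to TPM and to 0.14 (limma adjusted p = 0.01) with quantile normalisation. These last 2 calls were each lost without untreated library 1 or 3 or without any 1 asparaginase library of Nalm6, at limma adjusted p of 0.07 to 0.14 for MTHFD2 and 0.051 to 0.13 for MTHFD1L.

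By FPKM, MTHFD2L and ALDH1L2 stood below the rest. MTHFD2L, a second mitochondrial oxidising enzyme (ENSG00000163738, chromosome 4, 74114174 to 74303099, plus strand), had 1.80, 1.59 and 1.65 FPKM in Sem asparaginase libraries against 1.83, 1.66 and 1.85 FPKM untreated, overlapping groups that were not called (log2 -0.05, 95% interval -0.23 to 0.12, limma adjusted p = 0.68). In Nalm6 it fell to 1.79, 1.64 and 1.48 FPKM, against 2.08, 2.61 and 2.20 FPKM untreated (log2 -0.32, SE 0.08, limma adjusted p = 0.0059). ALDH1L2 (ENSG00000136010, chromosome 12, 105019784 to 105084577, minus strand) had 0 to 3 reads per Sem library and 0 to 1 per Nalm6 library, at most 0.0228 FPKM, did not pass the filter of 1 FPKM in at least 3 libraries and was not tested.

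Set against each other, 8 of 9 tested members changed more positively in Sem than in Nalm6 with asparaginase by limma and 0 less, where 33.5% of tested genes were called (17.7% higher in Sem and 15.7% lower). The members' median difference was 0.67 and that of all tested genes -0.006. The gap was composed of unlike parts: for PSAT1, PHGDH, SHMT2 and MTHFD2 a greater rise in Sem, for MTHFD1 and SHMT1 a greater fall in Nalm6, and for MTHFD1L a rise in Sem against the scaling-dependent change in Nalm6. MTHFD2L was called at 0.27 (limma adjusted p = 0.043), a call lost as TPM (0.086) and without any 1 of 8 libraries, Nalm6 untreated 2 or 3, Nalm6 asparaginase 2 or 3, Sem untreated 1 or 2 or Sem asparaginase 1 or 3 (limma adjusted p = 0.051 to 0.13).

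**Figure D2:**
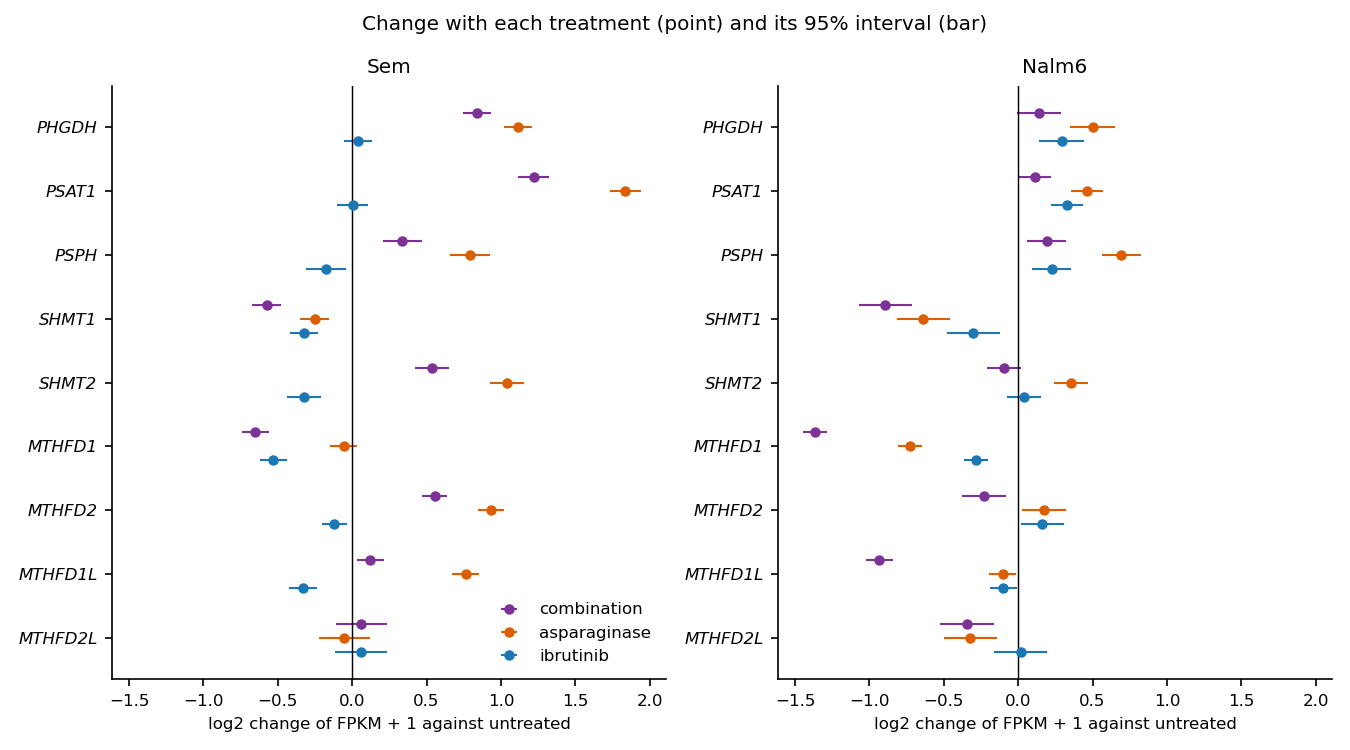
Log2 change of FPKM + 1 against untreated cells for each of 9 members, with its 95% interval, by treatment and by line. The asparaginase changes of PSAT1, PHGDH, SHMT2 and MTHFD2 lie to the high side in Sem (1.84 for PSAT1), and the combination changes of MTHFD1 and MTHFD1L lie to the low side in Nalm6 (-1.36 for MTHFD1).

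With ibrutinib alone MTHFD1 fell in both lines, PHGDH and PSAT1 rose in Nalm6, and whether they were called in Sem depended on the scaling. In Sem, limma called 0 of 9 tested members higher and 6 lower, where 41.5% of tested genes were called (20.3% higher and 21.3% lower), with a median of -0.18 for the members and 0.01 for all tested genes. In Nalm6, limma called 3 higher and 2 lower, where 12.4% of tested genes were called (4.99% higher and 7.46% lower), with medians of 0.04 and -0.01. The split of Nalm6 calls depended on scaling. As TPM, and with quantile normalisation, 4 members were called higher and 1 lower, and the share of higher calls among all genes called was 70.4% as TPM, 55.3% quantile-normalised and 40.1% as deposited. In Sem 1 member was higher and 4 lower as TPM, 2 and 4 with quantile normalisation, and the share of higher calls was 65.8% as TPM and 48.8% as deposited.

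MTHFD1 fell in both lines. It had 20.0, 21.4 and 19.9 FPKM in Sem ibrutinib libraries against 28.7, 30.2 and 30.9 FPKM untreated (0.682 times, log2 -0.53, limma adjusted p = 3.8e-06), and 24.6, 24.3 and 24.4 FPKM in Nalm6 against 30.4, 29.2 and 30.3 FPKM (0.816 times, log2 -0.28, limma adjusted p = 0.001). Ibrutinib libraries lay below all untreated ones in both lines. SHMT1 had 8.64, 9.28 and 9.01 FPKM in Sem ibrutinib libraries against 11.02, 11.58 and 11.85 FPKM untreated (log2 -0.32, limma adjusted p = 0.00016), and 6.71, 6.82 and 6.22 FPKM in Nalm6 against 8.03, 7.96 and 9.10 FPKM (log2 -0.30, limma adjusted p = 0.035). The Nalm6 call of SHMT1 was lost as TPM (-0.26, limma adjusted p = 0.091), with quantile normalisation (-0.28, 0.055) and with no filter on low values (0.079). In Sem SHMT2 (log2 -0.32, limma adjusted p = 0.00052) and MTHFD1L (-0.33, 0.0001) fell as well, each with ibrutinib libraries below all untreated ones. PSPH was called lower in Sem (log2 -0.18, limma adjusted p = 0.035), but not as TPM (-0.10, 0.15), with quantile normalisation (-0.07, 0.31), with a correction for GC content and length (0.1) or with no filter (0.075). MTHFD2 was called lower as well (-0.12, limma adjusted p = 0.026), was lost as TPM (-0.04, 0.36) and turned to 0.05 (0.15) with quantile normalisation. Neither small call held without untreated library 1 or 3, or without ibrutinib library 3, of Sem (limma adjusted p = 0.057 to 0.11 over these and the other losses, ibrutinib library 1 for MTHFD2 and 2 for PSPH).

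The members called higher in Nalm6 with ibrutinib as deposited were those of serine synthesis. PSAT1 had 161, 169 and 171 FPKM with ibrutinib against 128, 135 and 136 FPKM untreated (log2 0.33, SE 0.05, limma adjusted p = 0.0023). PHGDH had 27.56, 29.02 and 27.04 FPKM against 23.9, 21.3 and 22.6 FPKM (log2 0.29, limma adjusted p = 0.02), and PSPH 23.0, 26.3 and 25.7 FPKM against 20.2, 22.6 and 20.9 FPKM (log2 0.23, limma adjusted p = 0.033). Ibrutinib libraries were above the untreated ones for all 3 genes, narrowly for PSPH. MTHFD2 had 125, 127 and 136 FPKM with ibrutinib against 110, 120 and 115 FPKM untreated and was not called (log2 0.16, limma adjusted p = 0.14), but was called higher as TPM (0.24, 0.037), with quantile normalisation (0.26, 0.027), with a correction for GC content and length (0.015), with both lines in 1 fit (0.047) and without the libraries that stood apart (0.011). The calls of PHGDH, PSPH and SHMT1 in Nalm6 lay near the threshold, and each was lost without any 1 of several libraries. PHGDH was lost without untreated 2 or 3 or ibrutinib 1 or 2 (limma adjusted p = 0.054 to 0.075), PSPH without untreated 1 or 3 or ibrutinib 2 or 3 (0.1 to 0.12), and SHMT1 without untreated 1 or 3 or any ibrutinib library (0.065 to 0.13). The count of 5 fell to 2 without untreated 3 or ibrutinib 2 and to 3 without untreated 1, ibrutinib 1 or ibrutinib 3. In Sem, PSAT1 was at 84.2, 86.4 and 90.2 FPKM in Sem ibrutinib cells against 84.0, 83.8 and 92.3 FPKM untreated, overlapping groups with a log2 change of 0.00 (95% interval -0.10 to 0.11, limma adjusted p = 0.95). With quantile normalisation PSAT1 was called higher there (0.22, limma adjusted p = 0.00038), and PHGDH, not called in Sem as deposited, was called higher as TPM (0.13, 0.027) and with quantile normalisation (0.17, 0.0096).

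Between the lines, 7 of 9 tested members were called lower in Sem than in Nalm6 in their change with ibrutinib and 0 higher, where 13.7% of tested genes were called (7.56% higher and 6.09% lower). The median difference was -0.25 for the members and 0.01 for all tested genes. PSPH differed by -0.40 (limma adjusted p = 0.0032), SHMT2 by -0.36 (0.0021) and PSAT1 by -0.32 (0.0027). SHMT1 was not called different (-0.02, 95% interval -0.21 to 0.17, limma adjusted p = 0.92). The call of PHGDH (-0.25, limma adjusted p = 0.044) was lost in 9 of 12 fits that left out a library (0.052 to 0.11) and also as TPM (0.063) and with quantile normalisation (0.12), and that of MTHFD2 (-0.28, 0.018) without Nalm6 untreated 1, Nalm6 ibrutinib 3 or Sem untreated 3 (0.051 to 0.056).

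With both drugs, all 3 serine synthesis enzymes were called above untreated cells in Sem, while in Nalm6 PSPH was called and the calls of PHGDH and PSAT1 depended on the scaling. In Sem limma called 6 of 9 tested members higher and 2 lower in combination libraries than in untreated ones, where 52.9% of tested genes were called (26.6% higher and 26.3% lower), with medians of 0.34 for the members and 0.02 for all tested genes. In Nalm6 it called 1 higher and 5 lower, where 63.7% of tested genes were called (32.4% higher and 31.3% lower), with medians of -0.23 and 0.02. As TPM, which raised the median of all genes in this Nalm6 comparison by 0.165 and in its asparaginase comparison by 0.15, the Nalm6 members split into 3 higher and 4 lower; with quantile normalisation the split was 5 and 4.

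PSAT1 had 201, 203 and 205 FPKM in Sem combination libraries against 84.0, 83.8 and 92.3 FPKM untreated (2.34 times, log2 1.22, limma adjusted p = 1.3e-08). PHGDH had 55.6, 54.9 and 53.3 FPKM against 29.78, 28.96 and 31.55 FPKM (1.81 times, limma adjusted p = 8.3e-08), and PSPH 28.1, 30.9 and 30.2 FPKM against 23.5, 22.4 and 24.1 FPKM (1.27 times, limma adjusted p = 0.00065). All Sem combination libraries lay above the untreated ones for the 3 genes. In Nalm6 PSAT1 had 151, 146 and 135 FPKM against 128, 135 and 136 FPKM, overlapping groups (log2 0.11, 95% interval 0.01 to 0.22, limma adjusted p = 0.06), and PHGDH 22.7, 25.9 and 26.5 FPKM against 23.9, 21.3 and 22.6 FPKM, also overlapping (0.14, -0.01 to 0.29, limma adjusted p = 0.092). Without combination library 3, PSAT1 was called higher (limma adjusted p = 0.016), and without combination library 1, which stood apart from its group, PHGDH was (0.015). Both were called higher as TPM (log2 0.32, limma adjusted p = 0.0028 for PHGDH and 0.29, 0.00018 for PSAT1), with quantile normalisation (0.36, 0.00072 and 0.49, 2.1e-06) and with both lines in 1 fit (0.041 and 0.042), and PSAT1 with a correction for GC content and length (0.0017). PSPH was the 1 member called higher in Nalm6 as deposited, with 24.8, 23.3 and 25.1 FPKM against 20.2, 22.6 and 20.9 FPKM (log2 0.19, limma adjusted p = 0.014), a call lost without untreated library 1 (0.057).

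The deepest falls were in Nalm6 combination cells. MTHFD1 had 10.9, 11.3 and 10.9 FPKM there against 30.4, 29.2 and 30.3 FPKM untreated, 0.368 times the level (log2 -1.36, SE 0.04, limma adjusted p = 6.7e-10). MTHFD1L had 16.5, 17.7 and 17.9 FPKM against 34.3, 33.3 and 34.7 FPKM (0.509 times, log2 -0.94, limma adjusted p = 1e-08), and SHMT1 3.56, 4.32 and 4.24 FPKM against 8.03, 7.96 and 9.10 FPKM (0.483 times, log2 -0.89, limma adjusted p = 2.6e-06). For these 3 genes the groups were far apart. MTHFD2L fell too (log2 -0.34, limma adjusted p = 0.0032). MTHFD2 was called lower (log2 -0.23, limma adjusted p = 0.011) and SHMT2 was not called (-0.10, 0.13), and MTHFD2 was lost as TPM (-0.06, 0.45) and with quantile normalisation both turned, MTHFD2 to 0.15 (limma adjusted p = 0.046) and SHMT2 to 0.23 (0.0044). In Sem combination cells MTHFD1 had 18.0, 19.2 and 18.8 FPKM against 28.7, 30.2 and 30.9 FPKM untreated (0.624 times, limma adjusted p = 3.4e-07) and SHMT1 was at 0.642 times the untreated level (1.2e-06). SHMT2 stayed at 1.46 times (limma adjusted p = 7.4e-06), MTHFD2 at 1.48 times (6.3e-07) and MTHFD1L at 1.09 times (0.03), the last call being lost without untreated library 2 or combination library 1 or 2 (0.083 to 0.11). Between the lines, 8 of 9 members were called higher in Sem in their change with the combination and 0 lower, where 40.8% of tested genes were called (22.2% higher and 18.6% lower), the greatest differences being those of PSAT1 at 1.10 (limma adjusted p = 2.4e-10) and MTHFD1L at 1.06 (2.3e-11).

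Set against asparaginase alone, the combination held lower levels of 8 of 9 tested members in both lines and of no member a higher one. In Sem 38.3% of tested genes were called in this comparison (18.6% higher and 19.8% lower) and in Nalm6 21.8% (9.80% higher and 12% lower), and the members' median log2 change was -0.46 in Sem and -0.40 in Nalm6, against 0.01 and -0.01 for all tested genes (see the plot of combination against asparaginase). MTHFD1L had the lowest log2 change in both lines. It fell to 19.0, 18.8 and 18.0 FPKM in Sem combination libraries against 28.6, 30.3 and 30.1 FPKM in asparaginase ones (0.628 times, log2 -0.64, limma adjusted p = 8.8e-07). In Nalm6 MTHFD1L had 16.5, 17.7 and 17.9 FPKM with the combination against 31.1, 32.5 and 31.4 FPKM with asparaginase (0.549 times, log2 -0.83, limma adjusted p = 9.5e-07). PSAT1 had 201, 203 and 205 FPKM in Sem combination libraries against 313, 296 and 326 FPKM in asparaginase ones (0.651 times, limma adjusted p = 3.2e-06), and 151, 146 and 135 FPKM in Nalm6 against 187, 182 and 181 FPKM (0.786 times, limma adjusted p = 0.00067). Combination libraries lay below every asparaginase library for these genes in both lines. MTHFD1 was at 0.651 times the asparaginase level in Sem (limma adjusted p = 1.6e-06) and at 0.622 times in Nalm6 (2.3e-06), SHMT2 at 0.701 times (2.3e-05) and 0.728 times (0.00018), PSPH at 0.722 times (0.00014) and 0.7 times (0.00022), PHGDH at 0.823 times (0.0005) and 0.773 times (0.0036), and MTHFD2 at 0.768 times (2.2e-05) and 0.758 times (0.0018). SHMT1 was at 0.779 times in Sem (limma adjusted p = 0.00016) and 0.804 times in Nalm6 (0.043), and the Nalm6 call was lost as TPM (0.051) and without asparaginase 2 or 3 or combination 1 or 3 (0.057 to 0.14). The exception in both lines was MTHFD2L, not called in Sem (log2 0.11, 95% interval -0.06 to 0.29, limma adjusted p = 0.28) or in Nalm6 (-0.02, -0.20 to 0.16, 0.88).

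Set against ibrutinib alone, the lines went opposite ways for several members, while SHMT1 was called lower in both. In Sem 6 of 9 tested members were called higher in combination libraries and 1 lower, where 12.1% of tested genes were called (4.82% higher and 7.30% lower); in Nalm6 0 were higher and 7 lower, where 57.2% were called (29.5% higher and 27.7% lower). The members' medians were 0.51 in Sem and -0.36 in Nalm6, and those of all tested genes -0.00 and 0.03. PSAT1 was 2.34 times as high with the combination as with ibrutinib in Sem (limma adjusted p = 8.8e-08), SHMT2 1.84 times (1.8e-06), PHGDH 1.76 times (6.8e-07) and MTHFD2 1.61 times (1e-06). SHMT1, the 1 called lower in Sem, averaged 7.37 FPKM with the combination and 8.98 FPKM with ibrutinib there. MTHFD1 averaged 18.7 and 20.4 FPKM in these Sem groups. It was not called as deposited, but was called lower with a correction for GC content and length (log2 -0.12, limma adjusted p = 0.037) and with both lines in 1 fit (-0.12, 0.033). In Nalm6 MTHFD1 was at 0.451 times the ibrutinib level (limma adjusted p = 6.3e-09), MTHFD1L at 0.547 times (4.9e-08) and SHMT1 at 0.614 times (9.8e-05). PHGDH and PSPH were not called in Nalm6. PSAT1 (0.864 times, limma adjusted p = 0.0035) and SHMT2 (0.912 times, 0.048) were called lower in Nalm6 as deposited but PSAT1 (limma adjusted p = 0.05) and SHMT2 (0.61) were lost as TPM, and they turned to log2 changes of 0.07 (limma adjusted p = 0.16) and 0.09 (0.2) with quantile normalisation, under which 0 members were called higher and 4 lower. The SHMT2 call was also lost without any 1 ibrutinib library or combination library 1 or 3 (limma adjusted p = 0.056 to 0.14).

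For 7 members in Nalm6 and 4 in Sem the combination gave less RNA than the single-drug changes add up to. The departure is the log2 change with both drugs minus the sum of the log2 changes with each, so a negative value lies below that sum. In Nalm6 limma called 7 of 9 tested members below additivity and 0 above, where 5.58% of tested genes were called (2.99% above and 2.59% below), with a median of -0.56 for the members and 0.001 for all tested genes. The departure was -0.73 for MTHFD1L (limma adjusted p = 9.8e-05), -0.72 for PSPH (0.00088), -0.67 for PSAT1 (0.00051), -0.65 for PHGDH (0.0037), -0.56 for MTHFD2 (0.0072), -0.49 for SHMT2 (0.0041) and -0.36 for MTHFD1 (0.0034). SHMT1 stood apart from them at 0.04 (95% interval -0.21 to 0.30, limma adjusted p = 0.88), its falls with the 2 drugs having nearly added up, and MTHFD2L was at -0.04 (-0.29 to 0.21, 0.9).

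In Sem limma called 4 of 9 tested members below additivity and 0 above, where 1.53% of tested genes were called (0.760% above and 0.768% below), with medians of -0.26 and 0.003. PSAT1 departed by -0.62 (limma adjusted p = 0.0012), which was called in every fit that left out 1 Sem library. PHGDH (-0.32, limma adjusted p = 0.033), MTHFD1L (-0.31, 0.028) and MTHFD2 (-0.26, 0.047) were lost in 9, 8 and 10 such fits of 12 (limma adjusted p = 0.051 to 0.11). PHGDH was also lost with a correction for GC content and length (limma adjusted p = 0.059), with no filter on low values (0.058) and with both lines in 1 fit (0.057). MTHFD2 was lost with no filter (limma adjusted p = 0.074) and with both lines in 1 fit (0.11). The count was 1 without ibrutinib 2 or 3, asparaginase 2 or 3 or any combination library, 2 without untreated 1, ibrutinib 1 or asparaginase 1, and 4 without untreated 2 or 3. PSPH (-0.28, 95% interval -0.46 to -0.09, limma adjusted p = 0.14) and SHMT2 (-0.18, -0.34 to -0.02, 0.25) were not called, although PSPH was called as TPM (-0.36, 0.026) and with a correction for GC content and length (-0.33, 0.043). The difference between the lines in departure was not tested. Among all genes the share of calls above additivity depended on scaling, 49.8% as deposited, 16.8% as TPM and 37.3% quantile-normalised in Sem, and 53.6% as deposited and 34.8% as TPM in Nalm6.

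**Figure D3:**
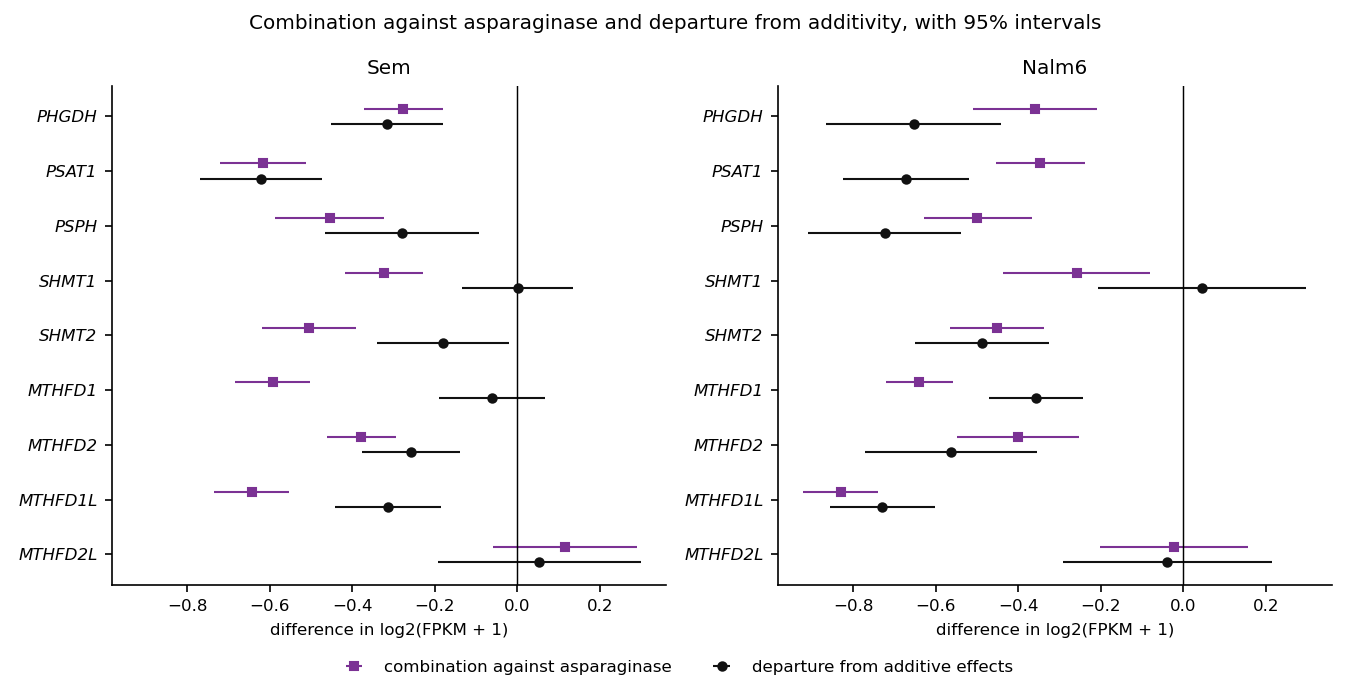
Log2 change of FPKM + 1 in combination against asparaginase libraries, and departure of the combination from the sum of the single-drug changes, for 9 members with 95% intervals, by line. In the comparison with asparaginase 8 of the 9 members lie below 0 with their whole interval in each line, and in the departure SHMT1 and MTHFD2L lie at 0 in each.

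Within a library, the mitochondrial enzyme stood higher over its cytosolic partner than in untreated cells in 3 of 3 pairs with each treatment in Nalm6 and with the combination and asparaginase in Sem. With ibrutinib in Sem, SHMT2 over SHMT1 did not. These ratios are free of the library's scaling, though their size depends on the gene lengths used, and are given as a description. MTHFD1 is the cytosolic partner of both MTHFD2 and MTHFD1L. In Nalm6 combination libraries SHMT2 was at 0.935, MTHFD2 at 0.854 and MTHFD1L at 0.509 times the untreated level as deposited. MTHFD1 was at 0.368 and SHMT1 at 0.483 times, so the higher ratios there came with a deeper fall of the cytosolic genes. SHMT2 over SHMT1 was 7.93, 7.46 and 7.50 in Sem combination libraries, 8.11, 8.63 and 8.68 in asparaginase, 3.22, 3.42 and 3.58 in ibrutinib and 3.51, 3.24 and 3.31 in untreated ones. In Nalm6 it was 16.4, 14.9 and 15.04 in combination, 18.2, 16.8 and 16.2 in asparaginase, 10.1, 10.3 and 10.7 in ibrutinib and 8.48, 7.98 and 7.48 in untreated libraries. The ibrutinib and untreated libraries thus overlapped in Sem and were apart in Nalm6.

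MTHFD2 over MTHFD1, the mitochondrial oxidising enzyme over the cytosolic one, averaged 4.79 ± 0.13 in Sem combination, 4.06 ± 0.07 in asparaginase, 2.73 ± 0.09 in ibrutinib and 2.03 ± 0.10 in untreated libraries (SD, n = 3 each). In Nalm6 the same groups averaged 8.95 ± 0.99, 7.33 ± 0.18, 5.29 ± 0.25 and 3.85 ± 0.25 in that order, and no 2 groups of a line overlapped. MTHFD1L over MTHFD1 averaged 0.997 ± 0.049 in Sem combination, 1.03 ± 0.052 in asparaginase, 0.655 ± 0.035 in ibrutinib and 0.570 ± 0.039 in untreated libraries, and 1.58 ± 0.061, 1.79 ± 0.048, 1.30 ± 0.002 and 1.14 ± 0.010 in Nalm6. For this pair the combination overlapped asparaginase in Sem and lay below it in Nalm6. Within serine synthesis, PSAT1 over PHGDH averaged 3.72 ± 0.12 in Sem combination, 4.70 ± 0.30 in asparaginase, 2.81 ± 0.06 in ibrutinib and 2.88 ± 0.05 in untreated libraries, while in Nalm6 the 4 means lay between 5.69 and 5.99 and the groups overlapped.

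**Figure D4:**
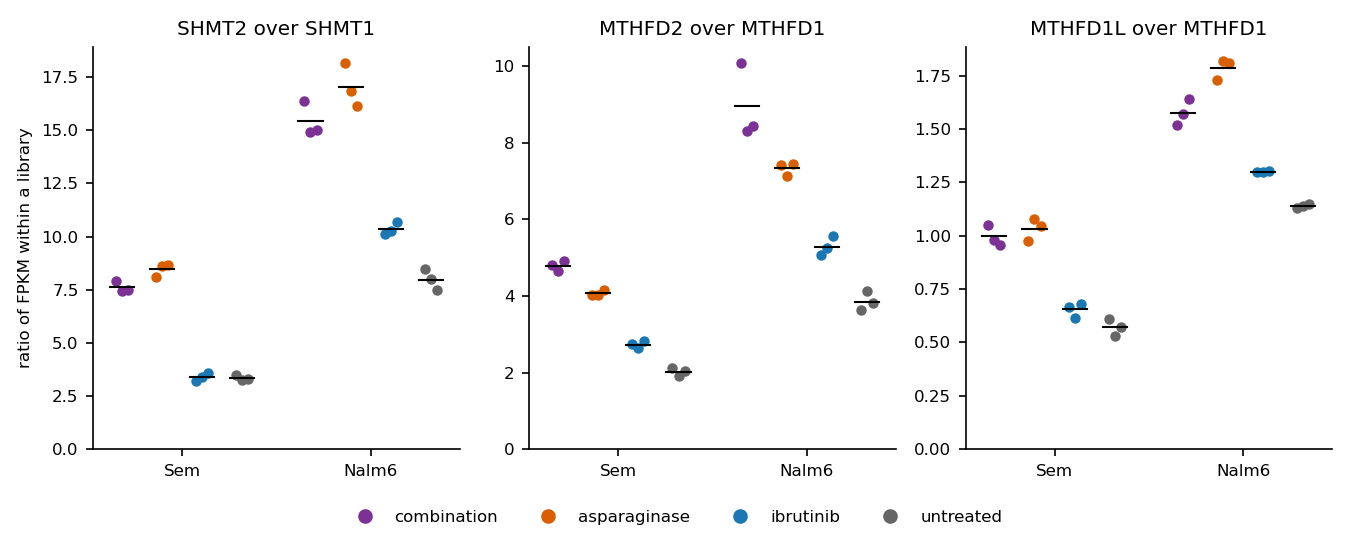
Ratio of FPKM within each library (points, with the group mean as a line) of SHMT2 over SHMT1, MTHFD2 over MTHFD1 and MTHFD1L over MTHFD1, by line and treatment. Asparaginase and combination libraries lie above the untreated ones of the same line in all 3 ratios, and the untreated Nalm6 ratio of SHMT2 over SHMT1 (7.98) is close to that of Sem combination libraries (7.63).

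The other genes of the pathway were counted over lists of partners and regulators. Of 10 tested folate cycle and carrier genes in Sem, limma called 2 higher and 4 lower with the combination, 0 and 3 with asparaginase and 1 and 4 with ibrutinib. Of 12 in Nalm6 it called 3 higher and 8 lower, 3 and 7, and 0 and 3 in the same order. Over all tested genes 52.9%, 26.4% and 41.5% were called in Sem and 63.7%, 56.3% and 12.4% in Nalm6, so the list's shares in Sem were near the background. As TPM the ibrutinib split was 3 higher and 3 lower in Sem and 1 and 1 in Nalm6. TYMS, the thymidylate synthase that uses the one-carbon unit, was lower in all 6 comparisons with untreated cells, by up to -0.48 in Sem (combination, limma adjusted p = 4.1e-06) and -1.32 in Nalm6 (combination, 1.9e-09), although the calls of Sem asparaginase and Nalm6 ibrutinib were lost with quantile normalisation. SLC19A1, the reduced folate carrier, fell with the combination by 0.83 on the log2 scale in Sem (limma adjusted p = 1e-06) and by 1.47 in Nalm6 (2.6e-07). With asparaginase alone SLC19A1 changed by -0.10 in Sem (limma adjusted p = 0.29) and by -0.85 in Nalm6 (3.1e-05). GGH, a hydrolase that shortens folate polyglutamates, fell by 0.74 in Nalm6 combination cells (limma adjusted p = 5.1e-05) and was at 0.14 in Sem (0.032).

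Both purine enzymes that take formyl-tetrahydrofolate were called lower with the combination and with asparaginase in each line. Of all tested genes, 26.3% in Sem and 31.3% in Nalm6 were called lower with the combination, and 15.1% and 28.1% with asparaginase. ATIC averaged 28.5 ± 0.45 FPKM in Sem combination, 37.7 ± 0.84 in asparaginase, 35.7 ± 0.99 in ibrutinib and 47.1 ± 3.2 in untreated libraries (SD, n = 3 each), a change of -0.70 with the combination (limma adjusted p = 3.8e-07). In Nalm6 ATIC fell by 1.28 with the combination (limma adjusted p = 5.3e-09) and by 0.75 with asparaginase (5.8e-07). GART fell by 0.62 in Sem (limma adjusted p = 4.7e-07) and by 0.84 in Nalm6 (3.4e-08) with the combination; with asparaginase in Sem its change of -0.16 (0.014) was lost as TPM and with quantile normalisation. With ibrutinib alone both were called lower in Sem and neither in Nalm6, where 21.3% of all tested genes in Sem and 7.46% in Nalm6 were called lower. In the glycine cleavage system 2 of 3 tested genes in Sem and 1 of 1 in Nalm6 were called lower with the combination, where 26.3% of all tested genes in Sem and 31.3% in Nalm6 were called lower. DLD, its dehydrogenase subunit, fell with the combination by 0.53 in Sem (limma adjusted p = 1.9e-06) and by 0.75 in Nalm6 (5.1e-07), and GLDC, its decarboxylase, fell by 0.38 in Sem (0.0011) and was at or near 0 FPKM in Nalm6.

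In the methionine cycle and transsulfuration, limma called 1 of 7 tested genes higher and 2 lower with the combination in Sem, and 0 and 5 in Nalm6, where 52.9% and 63.7% of all tested genes were called. The changes of AHCY, the enzyme that clears S-adenosylhomocysteine, differed between the lines by 1.36 with the combination (Sem minus Nalm6, limma adjusted p = 4.1e-08) and by 0.89 with asparaginase (1.5e-05). AHCY fell in Nalm6 by 1.47 with the combination (limma adjusted p = 2.2e-07), by 1.11 with asparaginase (3.6e-06) and by 0.50 with ibrutinib (0.0088). In Sem its change was -0.12 with the combination (limma adjusted p = 0.14), -0.23 with asparaginase (0.02) and -0.17 with ibrutinib (0.047), the second call being lost as TPM and the third turning to 0.02 with quantile normalisation. CTH, which makes cysteine from cystathionine, was the 1 gene of 7 tested that rose with asparaginase in Sem, by 0.77 (limma adjusted p = 0.00012). In Nalm6 CTH changed by -0.00 with asparaginase (limma adjusted p = 1), a difference of 0.77 (Sem minus Nalm6, 0.00018). MTRR, which reactivates methionine synthase, fell with the combination by 0.23 in Sem (limma adjusted p = 0.0021) and by 0.35 in Nalm6 (3.8e-05). MAT2A, which makes S-adenosylmethionine, was at -0.25 in Sem (limma adjusted p = 0.00028) and -0.33 in Nalm6 (7.8e-05) with the combination, of which the first was lost and the second turned to 0.02 with quantile normalisation.

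Among carriers and users of serine, 4 genes rose and 1 fell with asparaginase in each line, of 9 tested in Sem and 8 in Nalm6, where 26.4% and 56.3% of all tested genes were called. SLC1A4, a serine and neutral amino acid carrier, averaged 23.6 ± 0.44 FPKM in Sem asparaginase and 11.7 ± 0.44 FPKM in untreated libraries (SD, n = 3 each, log2 0.96, limma adjusted p = 1.2e-07). In Nalm6 SLC1A4 rose by 0.67 (limma adjusted p = 9.5e-05). SLC1A5, a glutamine carrier that also takes serine, rose by 0.90 in Sem (limma adjusted p = 9.2e-08) and was at 0.15 in Nalm6 (0.27), a difference of 0.74 (Sem minus Nalm6, 0.00014). SFXN1, the mitochondrial serine carrier, fell instead, by 0.29 in Sem (limma adjusted p = 0.00079) and by 0.92 in Nalm6 (7.3e-07), while SHMT2, which uses the serine it delivers, rose in both. SERINC1 rose in Nalm6 by 1.22 with the combination (limma adjusted p = 2e-07) and in Sem by 0.20 (0.0051).

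Of 7 genes known to regulate these enzymes or to act with ATF4, 5 rose with asparaginase and 5 with the combination in each line by limma. Of all tested genes, 11.4% in Sem and 28.2% in Nalm6 were called higher with asparaginase, and 26.6% and 32.4% with the combination. In Sem 0 fell, and in Nalm6 MYC fell in both comparisons. All 4 genes taken as context of the amino acid response, ATF4, DDIT3, TRIB3 and ASNS, rose with asparaginase and with the combination in each line, the Nalm6 combination call of ASNS being lost with quantile normalisation. ATF4 itself averaged 270 ± 17 FPKM in Sem asparaginase and 199 ± 7.2 FPKM in untreated libraries (SD, n = 3 each, log2 0.43, limma adjusted p = 0.00015), and 234 ± 4.9 against 197 ± 8.3 FPKM in Nalm6 (0.25, limma adjusted p = 0.00038). Its partners moved further. ATF5, a relative of ATF4, rose by 3.08 in Sem with asparaginase (limma adjusted p = 1.2e-11) and by 0.88 in Nalm6 (1.2e-06). TRIB3, an ATF4-induced pseudokinase, rose by 2.83 in Sem (limma adjusted p = 2.4e-08) and by 2.86 in Nalm6 (1.1e-08), and DDIT3, a stress-induced transcription factor, by 1.55 (3.6e-06) and 2.54 (4.8e-09). ASNS, asparagine synthetase, averaged 1.62 ± 0.18 FPKM in Sem asparaginase and 0.299 ± 0.12 FPKM in untreated libraries, and 1.57 ± 0.14 against 0.542 ± 0.05 FPKM in Nalm6, rises of 1.02 (limma adjusted p = 5.6e-05) and 0.73 (5.4e-05). Being under 1 FPKM untreated, ASNS passed the filter of 1 FPKM through treated libraries only. Its rise is therefore given as a description, and the 1 added to FPKM understates it. Between the lines (Sem minus Nalm6), the asparaginase change differed by 2.20 for ATF5 (limma adjusted p = 6.5e-13) and by -0.99 for DDIT3 (3.9e-05), and that of TRIB3 was not called different (-0.03, 0.9). The ATF4 difference of 0.18 (limma adjusted p = 0.037) was lost as TPM (0.12, 0.083), with quantile normalisation (0.07, 0.37) and without the libraries that stood apart (0.084). The ASNS difference of 0.28 (limma adjusted p = 0.041) was lost without the libraries that stood apart (0.062). Whether these differences bear on those of PSAT1 and PHGDH was not tested. MYC, a growth-promoting transcription factor known to act on SHMT2 and MTHFD2, fell in Nalm6 by 1.19 with the combination (limma adjusted p = 2.2e-06) and by 0.57 with asparaginase (0.00086). In Sem MYC was at 0.14 with the combination (limma adjusted p = 0.001) and at 0.03 with asparaginase (0.48), and the changes differed by 1.33 (Sem minus Nalm6, 2.1e-08) and 0.60 (0.00042).

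Across the 8 group means, each centred on its line, the members fell into 2 sets. These correlations are descriptions over points that share libraries, with no test. PHGDH ran with PSAT1 (r = 0.986), SHMT2 (0.942), MTHFD2 (0.940) and PSPH (0.922), and SHMT1 ran with MTHFD1 (0.951). PHGDH had r of -0.374 with SHMT1 and -0.080 with MTHFD1, and MTHFD1L sat between, at 0.841 with MTHFD2 and 0.720 with MTHFD1. Among 8767 non-member genes with a mean of at least 5 FPKM in some group, the pattern most like that of PHGDH was ATF4 (0.987), followed by GPT2 and JDP2 (0.982 each). GPT2 (0.980) was nearest to PSAT1, SLC7A1 (0.984), a cationic amino acid carrier, to PSPH, and TSEN15 (0.983) to SHMT2. The glycyl-tRNA synthetase GARS (0.979) was nearest to MTHFD2 and the tyrosyl-tRNA synthetase YARS (0.981) to MTHFD1L. DDX23 (0.999) was nearest to SHMT1, closely followed by DDA1 and NCAPH (0.997 each). PRPF19 (0.998) was nearest to MTHFD1, closely followed by IFRD2 (0.998) and KLF16 (0.997).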

How the data were processed

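RNA of 24 libraries was purified with RNeasy columns and prepared with the NEBNext Ultra kit, per the labels' protocols; fastp, STAR, featureCounts and hg38 are named in the submitters' processing notes, and versions are not given in the sources used here. The deposited unit was FPKM per gene, but the 299165 deposited values of 1 or more (21.2% of the table) had lost their decimal point, so the column counted as another unit. Intact values were whole reads in their library (largest deviation 9.1e-13 reads). The power of 10 was restored by scoring, over the 12 libraries of a line, the configurations that gave whole reads, and 438 restored values had a posterior under 0.99. The method was tested on simulated data.

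Members and lists were chosen with earlier results of these data known. limma-trend (limma 3.58.1, R 4.3.3) was run two-sided on log2(FPKM + 1), which understates the change of low genes, where 3 or more libraries reached 1 FPKM, with Benjamini-Hochberg adjustment over all genes tested and a threshold of 0.05. Each line was fitted alone (8 residual degrees of freedom), and line differences came from all 24 libraries (16). Intervals cover 95%. Named were the members, at most 4 called genes per list, ATF4, DDIT3, TRIB3 and ASNS, and genes most like a member. Of the genes this rule names, 1 is not reported here. Alternatives were other scalings, pseudocounts, filters, a GC and length correction, other fits and left-out libraries. Added after seeing the data were limma-voom on recovered reads and a fit without the 3 libraries that stood apart (Nalm6 untreated 2, asparaginase 1 and combination 1). Same-numbered libraries deviated together with every r over 0.1 in 1 of 12 group pairs, Nalm6 combination and asparaginase (r = 0.341, 0.101 and 0.155), where the replicate block kept 0 members higher and 8 lower. The planned count-model tests were not run, because the deposited unit was not counts.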

Additional observations from a re-analysis of the deposited data

Results flagged for a closer look

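The changes of several enzymes differed between the lines when the difference itself was tested (Sem minus Nalm6 on the log2 scale, limma fit of 24 libraries); no explanation was tested. With asparaginase the difference was 1.37 for PSAT1 (limma adjusted p = 2.9e-11), 0.87 for MTHFD1L (8e-10), 0.76 for MTHFD2 (4.5e-07), 0.68 for SHMT2 (7.8e-07), 0.67 for MTHFD1 (8.1e-09), 0.61 for PHGDH (1e-05), 0.38 for SHMT1 (0.0029) and 0.27 for MTHFD2L (0.043). With the combination it was 1.10 for PSAT1 (limma adjusted p = 2.4e-10), 1.06 for MTHFD1L (2.3e-11), 0.78 for MTHFD2 (1.4e-07), 0.71 for MTHFD1 (1.4e-09), 0.70 for PHGDH (1.2e-06), 0.63 for SHMT2 (1.1e-06), 0.41 for MTHFD2L (0.0028) and 0.32 for SHMT1 (0.0085). With ibrutinib it was -0.40 for PSPH (limma adjusted p = 0.0032), -0.36 for SHMT2 (0.0021), -0.32 for PSAT1 (0.0027), -0.28 for MTHFD2 (0.018), -0.25 for PHGDH (0.044), -0.25 for MTHFD1 (0.002) and -0.23 for MTHFD1L (0.0065). These 23 values are those called. Of all tested genes 33.5% were called with asparaginase (17.7% higher), 40.8% with the combination (22.2% higher) and 13.7% with ibrutinib (6.09% lower). Among the 23, all with asparaginase and with the combination were positive and all with ibrutinib alone were negative. Their signs are not separate observations, since the differences share the untreated libraries. The calls of MTHFD2L with asparaginase and PHGDH with ibrutinib were lost as TPM and in several fits that left out 1 library.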

How the results depend on the processing

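Of 2394 member values recomputed under an alternative, 2232 kept their side of the threshold, 126 lost a call, 29 gained one and 7 turned. A value counted as turned when its sign changed and it was called in either fit. Changes of sign without a call in either fit are among the 2232. The 7 that turned were MTHFD1L with asparaginase in Nalm6 (0.0463 as TPM and 0.142 with quantile normalisation) and, with quantile normalisation, SHMT2 and MTHFD2 with the combination in Nalm6 (0.226 and 0.151), SHMT2 and PSAT1 in combination against ibrutinib in Nalm6 (0.0892 and 0.0741) and MTHFD2 with ibrutinib in Sem (0.0534); the cause was not tested. Counts of members called moved by over 1.5 times for Nalm6 ibrutinib (5 to 3 with no filter on low values, where more genes were tested), Nalm6 combination against ibrutinib (7 to 4 with quantile normalisation) and the Sem departure (4 to 2 with no filter and 2 with both lines in one fit). Leaving out 1 library gave 7 to 7 calls of 7 in Sem asparaginase, 4 to 6 of 6 in ibrutinib, 7 to 8 of 8 in combination, 8 to 8 of 8 against asparaginase, 7 to 7 of 7 against ibrutinib and 1 to 4 of 4 in the departure. In Nalm6 it gave 7 to 9 of 9, 2 to 4 of 5, 5 to 7 of 6, 7 to 8 of 8, 6 to 7 of 7 and 7 to 7 of 7 in the same order, and between lines 7 to 8 of 8 (asparaginase), 5 to 7 of 7 (ibrutinib), 8 to 8 of 8 (combination) and 7 to 8 of 7 (untreated). Elsewhere than in Nalm6 combination and asparaginase, no group pair had every r of same-numbered libraries over 0.1. Yet r was positive throughout in Sem ibrutinib and untreated (0.057, 0.093 and 0.037) and in Sem asparaginase and untreated (0.081, 0.046 and 0.069). In each of these all 6 libraries matched their own number best, so pairing cannot be set aside there. Over 12 group pairs r ran from -0.179 to 0.341. Among 144 member values the replicate block lost 4 calls, MTHFD2 (limma adjusted p = 0.072) and MTHFD1L (0.064) with asparaginase in Nalm6, SHMT2 against ibrutinib in Nalm6 (0.06) and MTHFD2L in the asparaginase difference between lines (0.057), and changed no other. MTHFD2L, at about 2 FPKM, held 270 to 398 reads per Nalm6 library and 240 to 320 per Sem library, and the 1 added to FPKM understates its log2 changes. ALDH1L2, with 0 to 3 reads per library, was too low to test. The planned count-model fits were not run.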
